A study of Mus musculus with 9 samples.

Results

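Oocyte libraries that held a transcript of the expanded cumulus were set against libraries in which it had no count. The libraries were selected on a measured value, the count of Tnfaip6, whose protein cross-links hyaluronan in the expanded cumulus. A library belonged to the first set when its raw Tnfaip6 count was at least 1 in 1000000 of its total count. This put 4 of the 9 libraries in the first set, namely control 3, stress 3, KYZY 2 and KYZY 3. The other 5, control 1, control 2, stress 1, stress 2 and KYZY 1, had a Tnfaip6 count of 0. Because a measured value made the division, the comparison of 4 libraries with 5 is a description and carries no test.

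Each library was made from 15 oocytes of 1 mouse, pooled after ovulation was induced with 7.5 IU of PMSG and 7.5 IU of hCG. Oocytes arrested at the second meiotic metaphase were taken from the oviduct 16 hours after hCG, in complexes that were treated with 100 IU/ml hyaluronidase for 10 min to remove the cumulus. The mice were ICR females, labelled as 4 to 5 weeks old, with no engineered allele named. The 3 control mice were left unstressed, the 3 stress mice met 1 stressor a day over 6 weeks (chronic unpredictable mild stress), and the 3 KYZY mice had the stressors for 6 weeks and then 0.1 ml of the herbal decoction KYZY by stomach tube each day for 4 weeks. No stressed group given a vehicle is named, and the sequencing of the KYZY libraries is described in other words than that of the other 6. The 4 Tnfaip6-positive libraries were 1 of 3 control, 1 of 3 stress and 2 of 3 KYZY libraries. All 3 libraries of replicate number 3 were among them, 1 of those numbered 2 and none of those numbered 1, so between numbers 1 and 3 the division and the replicate number cannot be told apart.

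A cumulus-oocyte complex is an oocyte inside layers of somatic cells that are joined to it by gap junctions. After the ovulatory surge, cumulus cells answer EGF-like ligands by making a hyaluronan matrix, cross-linked by the proteins of Tnfaip6 and Ptx3, and they turn to steroid synthesis. Hyaluronidase dissolves that matrix, and any somatic cell, cell projection or free RNA that stays with the oocyte can enter a library. Oocytes make no new transcripts at this stage, and they break down glucose and make cholesterol poorly, so that pyruvate and cholesterol come to them from the cumulus.

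Total counts were 46324094 to 106990821 per library, and 13257 to 15802 of 24736 genes had a count above 0. Levels are CPM, counts per 1000000 of the TMM-scaled library total, a scaling that aligns the bulk of genes between libraries, with TMM factors from 0.799 in stress 3 to 1.273 in control 2. A gene was taken as present in a library above a floor of 12 counts, about 3 read pairs, which came to 0.105 to 0.245 CPM. After the low-count filter 13890 genes remained. A gene is called higher when its 4 values in the Tnfaip6-positive libraries all lay above its 5 values in the others, and lower in the opposite case. By that rule 1381 genes (9.94%) were higher and 985 (7.09%) were lower. Stress 3 weighed most on these counts: without it 2438 genes were higher and 1554 were lower, while leaving out any other library gave 1531 to 1705 and 1017 to 1389. Within the 6 control and stress libraries, which share a sequencing description, 1866 genes were higher and 2078 lower. That comparison sets 2 libraries against 4, a less demanding rule. Only 1 of the 3 KYZY libraries lacked Tnfaip6, too few to count apart. In the gene lists below, only members that passed the filter could be called higher or lower. Members near 0 in the 5 had little room to be lower. The shares of all genes kept, 9.94% higher and 7.09% lower, are the background for such counts.

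Tnfaip6 (chromosome 2, 52038113 to 52056681, GRCm38) had counts of 149 in control 3, 331 in stress 3, 1125 in KYZY 2 and 510 in KYZY 3. Per 1000000 of the total these were 2.065, 4.106, 16.57 and 11.01. The library nearest above the threshold was control 3, and all those below it were at 0, so no library lay close to it. Akr1c18, a progesterone-degrading enzyme of luteinised cells (chromosome 13, 4132615 to 4150646), was at 26.5, 2.24, 49.8 and 38.6 CPM in these libraries, against 0 to 0.0764 in the 5. Wherever 4 values are given below for the Tnfaip6-positive libraries, they follow that order: control 3, stress 3, KYZY 2, KYZY 3. Cyp11a1, which starts steroid synthesis by cutting the side chain of cholesterol, was lowest among the 4 in stress 3, at 14.7 CPM, and highest among the 5 in stress 2, at 10.6. Akr1c18 and Cyp11a1 were thus also highest in the 4 libraries that Tnfaip6 chose, but Cyp11a1 was above the floor in each of the 5 as well, so these were not free of steroidogenic transcripts. Fewer cumulus cells and less RNA per cell cannot be told apart in such pooled samples.

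Genes of the matrix of the expanded cumulus were higher in the 4 libraries as a group. Of 12 members, 8 to 12 were above the floor in the Tnfaip6-positive libraries and 1 to 5 in the others. Their summed level was 18.2 CPM in control 3, 20.9 in stress 3, 86.6 in KYZY 2 and 35.8 in KYZY 3, against 1.98 to 3.59 in the 5. Altogether 7 members were higher and 0 lower, and the median log2 ratio of the 12 was 1.64, where that of all genes kept was 0.00 (log2 ratios are of mean CPM plus 0.5, which understates low genes). Tnfaip6, which set the division, is in these counts, sums and median. Without it the other 11 members summed to 16.3, 15.7, 70.1 and 25.4 CPM in the 4, with 7 to 11 above the floor, and their median log2 ratio was 1.26, with 6 higher. The median of all 12 was 0.89 in the control and stress libraries alone, and within treatments 1.04 in control, 0.47 in stress and 2.07 in KYZY.

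Vcan, the versican core protein that binds hyaluronan, was at 5.52, 8.29, 39.8 and 6.33 CPM in the 4, against 0 to 0.153 in the 5. KYZY 2 stood out by its Vcan, while the remaining 3 were alike. Ptx3, the pentraxin that cross-links the matrix, was at 1.77, 0.916, 1.97 and 2.86 CPM and had no count in any of the 5, at least 12.4-fold higher than the mean floor of the 5. Hspg2, the basement membrane proteoglycan perlecan, was at 2.71, 1.57, 11.03 and 4.98 CPM against 0.198 to 0.552. Ptgs2, the prostaglandin synthase of the ovulatory response, was at 0.859, 2.28, 7.53 and 2.14 CPM against 0 to 0.237. Has2, the enzyme that makes the hyaluronan itself, was low throughout: 0.117, 0.248, 0.514 and 0.428 CPM against 0 to 0.0981, with control 3 under its floor of 0.156. Adamts1, a protease that cuts versican, did not separate the libraries, because stress 3 had 0.124 CPM and stress 2 had 0.471.

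Genes of the EGF and LH response, the signals that start expansion, were less uniform. Of 16 members, 9 passed the low-count filter, 4 of them higher and 0 lower, and 9 of the 16 were at or under the floor in all 5. The median log2 ratio of the 16 was 0.43. That median was 0.17 without KYZY 2 and 0.19 without KYZY 3, and within treatments 0.33 in control, 0.00 in stress and 0.74 in KYZY. Sfrp2, a secreted Wnt modulator, was at 2.07, 5.26, 18.4 and 1.18 CPM, against 0 in the 5, at least 44.5-fold higher. The transcription factor Runx2 stood at 1.37, 3.01, 8.07 and 3.02 CPM against 0.363 to 1.25, and its relative Runx1 at 1.63, 1.44, 4.39 and 1.98 against 0 to 0.122. Btc, the ligand betacellulin, was at 0.286 to 1.15 CPM in the 4 and at 0 in the 5. The ligand gene Areg and the progesterone receptor gene Pgr had a count of 0 in all 9 libraries. Both are genes of the hours soon after the surge, and the oocytes were taken 16 hours after hCG. Whether timing had a part in these counts of 0 was not tested. Rgs2 and Egfr, the members of highest level, overlapped between the sets, at 764 to 1015 against 977 to 1237 CPM and at 12.2 to 21.9 against 13.9 to 24.3.

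Of the 18 steroidogenesis genes, 10 were higher and 0 lower, with a median log2 ratio of 1.40, or 0.75 in the control and stress libraries alone. Within treatments it was 0.97 in control, 0.51 in stress and 1.80 in KYZY. Their summed level was 693 CPM in control 3, 294 in stress 3, 848 in KYZY 2 and 1124 in KYZY 3, against 163 to 219 in the 5. Hsd3b1, which makes progesterone from pregnenolone, was at 43.6, 12.2, 79.1 and 107 CPM, against 0.215 to 6.90 in the 5, a ratio of means of 21.4. The sets did not overlap, but stress 3 was closer to stress 2, at 6.90, than to the remaining Tnfaip6-positive libraries. Fdx1 and Fdxr hand electrons to the enzyme of Cyp11a1. Fdxr was at 3.85 to 13.3 CPM in the 4 and 0.165 to 1.18 in the 5, and Fdx1 at 88.9 to 279 against 34.6 to 66.8. Scarb1, the receptor that takes up cholesterol from high-density lipoprotein, was at 30.6 to 132 against 14 to 25 CPM. Nr5a1, the nuclear receptor that drives steroidogenic genes, was at 0.854 to 2.39 CPM against 0 to 0.157. With scaling to the total count alone, Fdx1 and Scarb1 overlapped between the sets. The aromatase gene Cyp19a1 overlapped, at 6.83 to 11.8 CPM in the 4 and 2.80 to 11.1 in the 5.

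Star, the carrier that brings cholesterol into mitochondria, did not separate the sets. Control 3 and KYZY 3 held 54.9 and 76.9 CPM and KYZY 2 held 4.86, but stress 3 held 0.372, less than control 2 with 2.07 and stress 2 with 3.54. The electron carrier gene Fdx1, in contrast, was higher in stress 3, at 88.9 CPM, than in any of the 5. With scaling to the total count alone, Fdx1 too did not separate the sets.

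Of 20 identity genes of cumulus and granulosa cells, 13 passed the filter, 5 of them higher and 0 lower, and 12 of the 20 were at or under the floor in all 5. The median log2 ratio of the 20 was 0.55, or 0.31 in the control and stress libraries alone. Inha, the inhibin alpha subunit, was at 7.55, 5.12, 10.9 and 21.4 CPM, against 0 to 0.325 in the 5. Gja1, the connexin that joins cumulus cells to each other, was at 5.00, 7.22, 25.1 and 15.2 CPM against 0 to 0.459. The ratios of means were 68.2 for Inha and 65.4 for Gja1. Fst, Inhba and Grem1, a secreted activin antagonist, an activin subunit and a BMP antagonist, were the other 3, and Grem1 was at 0 in all 5. The defining granulosa genes were near the floor in both sets: Foxl2 was at 0.0155 to 0.286 CPM in the 4 and Fshr, the FSH receptor, at 0.0621 to 0.25, against 0 to 0.0523 and 0 to 0.196. The summed level of the 20 genes, 180 to 241 against 162 to 216 CPM, did not separate the sets, since it came mostly from Bmpr1b, Esr2 and Gata4, whose libraries overlapped. Esr2, an oestrogen receptor, was at 2.59 CPM in stress 3 and at 41.9 to 69.2 in the other 8 libraries.

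**Figure D1:**
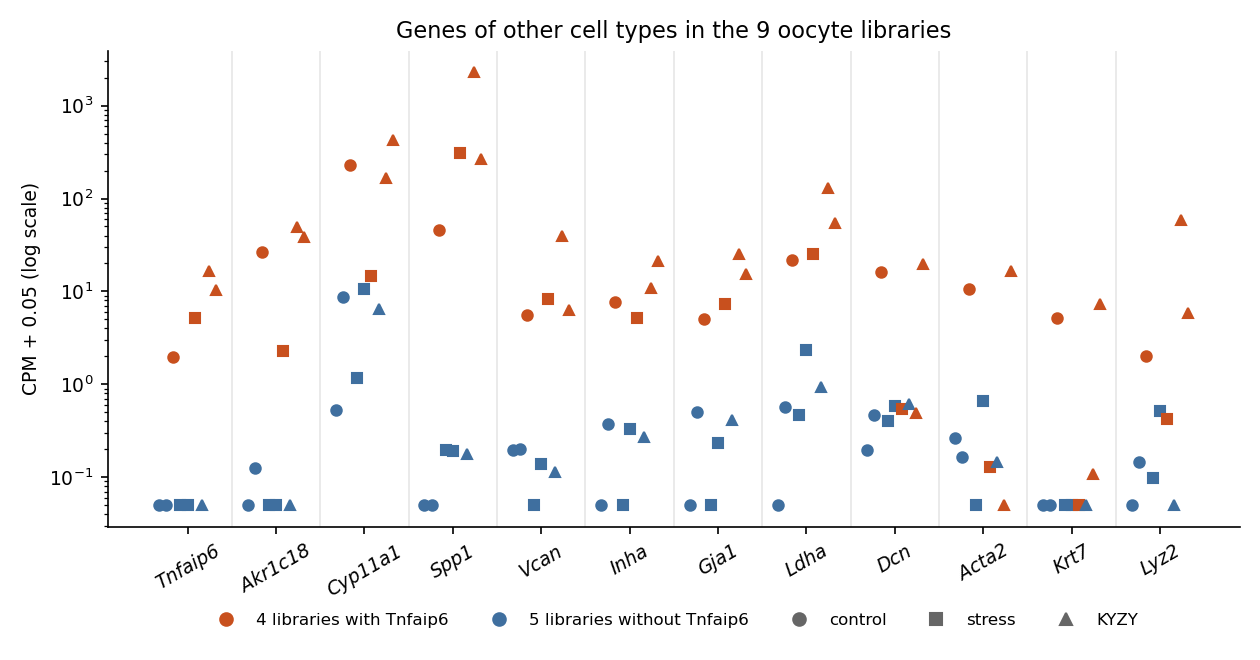
Level of 12 genes in each library, as CPM plus 0.05 on a log scale. Colours give the 2 sets and symbols the treatment, and each symbol is 1 library. From Tnfaip6 to Ldha the 4 Tnfaip6-positive libraries lie above all 5 others, whereas Dcn, Acta2 and Krt7 are high in control 3 and KYZY 3 alone and Lyz2 is highest in KYZY 2.

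The widest gaps between the sets belonged mostly to genes outside these lists. Spp1, the secreted phosphoprotein osteopontin (chromosome 5, 104435111 to 104441053), was at 45.5 CPM in control 3, 312 in stress 3, 2279 in KYZY 2 and 266 in KYZY 3, and at 0 to 0.147 in the 5. KYZY 2 had by far the most and control 3 the least, an order unlike that of Cyp11a1. Ephx2, the soluble epoxide hydrolase, was at 33.6, 53.8, 254 and 83.7 CPM against 0 to 1.42, a ratio of means of 147. Nupr1, a stress-response regulator, was at 6.18 to 22.4 CPM in the 4 and 0 to 0.208 in the 5. Mgst1, a microsomal glutathione transferase, was at 4.86 to 30.2 against 0 to 0.279. Timp1, an inhibitor of matrix metalloproteinases, was at 6.10 to 40.7 against 0 to 0.347, and Thbs1, the matrix protein thrombospondin, at 3.70 to 14.3 against 0 to 0.096. Rgcc and Nmrk1 completed the 10 genes of widest gap together with Vcan and Ldha. In each of these 10 genes the lowest Tnfaip6-positive library was control 3, stress 3 or KYZY 2.

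General somatic genes of the cytoskeleton and matrix were higher in 11 of 24 members and lower in 0, with a median log2 ratio of 1.94, the highest of the 16 lists. Members above the floor numbered 24, 19, 21 and 24 in the 4, but also 24 in stress 2 and 19 in control 2. The summed level overlapped, at 2374 to 3633 against 2107 to 3219 CPM. Vim, the intermediate filament protein of mesenchymal cells, was at 13.96, 5.59, 16.65 and 24.55 CPM, against 0 to 1.85 in the 5. Actb was at 205, 279, 522 and 356 against 64.6 to 92.3 CPM, a ratio of means of 4.399. In both genes the sets did not overlap. Lamb1, a laminin chain and the member of highest CPM, was at 1724 to 3275 against 1989 to 3105 CPM. Within treatments the median was 2.51 in control and 2.72 in KYZY but 0.52 in stress.

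Markers of cells other than the cumulus did not all follow Tnfaip6. Acta2, smooth muscle actin, reached 10.7 CPM in control 3 and 16.6 in KYZY 3. It was at 0.0776 CPM in stress 3, at 0 in KYZY 2 and at 0 to 0.611 in the 5. Dcn, the stromal proteoglycan decorin, was at 16.3 and 19.9 CPM in control 3 and KYZY 3 and at 0.149 to 0.569 in the other 7 libraries. Col3a1, a fibrillar collagen, was at 9.28 and 10.1 against at most 1.01 CPM. These stromal transcripts were high in control 3 and KYZY 3, while the other pair of Tnfaip6-positive libraries lay within the range of the 5. Of 15 endothelium and stroma genes, 13 passed the filter, 2 of them higher and 0 lower, beside 9.94% and 7.09% of all genes kept. The median log2 ratio of the 15 was 0.01, and 0.34 without stress 2. Within treatments it was 0.40 in control, -0.48 in stress and 0.49 in KYZY. The summed level did separate the sets, at 148.9 to 171.5 CPM in the 4 and 105.1 to 130.2 in the 5, and most of it was Myh11. The higher genes were Myh11, a smooth muscle myosin, at 98.8 to 126 against 71 to 98.4 CPM, which overlapped with scaling to the total count alone, and Cdh5, an endothelial cadherin, at 0.286 to 0.481 against 0 to 0.191. The endothelial genes Pecam1, Tek and Kdr overlapped between the sets.

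Of 17 oviduct epithelium genes, 10 passed the filter, 2 of them higher and 0 lower, beside 9.94% and 7.09% of all genes kept. The median log2 ratio of the 17 was 0.63. The 2 higher genes were keratins. Krt18 was at 3.32, 0.823, 0.778 and 5.69 CPM in the 4 against 0 to 0.288 in the 5. Krt8 was at 1.69, 0.885, 1.94 and 3.65 CPM against 0.0491 to 0.411. Some other members were high mainly in control 3 and KYZY 3. Ovgp1, the oviduct-specific glycoprotein, reached 4.74 CPM in control 3 and 7.75 in KYZY 3, and was at 0 and 0.91 in stress 3 and KYZY 2, and at up to 2.09 in the 5 (stress 2). Krt7, a keratin of simple epithelia, was at 5.11 and 7.20 CPM in control 3 and KYZY 3 and at 0 to 0.0587 elsewhere. Members of the oviduct list above the floor numbered 15 of 17 in control 3 and 14 in KYZY 3, against 6 in stress 3, 7 in KYZY 2 and 4 to 10 in the 5. The summed level went the other way, at 307 and 287 CPM in control 3 and KYZY 3, the lowest of all 9 libraries, beside 439 in stress 3, 358 in KYZY 2 and 347 to 512 in the 5. Most of that sum was Cdh1, the epithelial cadherin, at 273 CPM in control 3, 243 in KYZY 3 and 336 to 500.4 in the other 7. Oviduct tissue is what the complexes were cut from, and the part of its RNA in the differences between the sets was not tested.

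Leukocyte transcripts were highest in KYZY 2 by their summed level, though not in every member. The summed level of 27 immune and blood genes was 86.3 CPM there, 17.5 in control 3, 8.30 in stress 3 and 21.1 in KYZY 3, against 3.44 to 9.19 in the 5. Lyz2, the lysozyme of macrophages and neutrophils, made up most of it in KYZY 2, at 58.1 CPM, beside 5.84 in KYZY 3, 1.99 in control 3, 0.372 in stress 3 and 0 to 0.471 in the 5. Cd74, the invariant chain of antigen-presenting cells, was at 13.1 CPM in KYZY 2 and separated the sets, with 2.59 to 4.44 in the rest of the 4 and 0 to 0.314 in the 5. Of 27 members 12 passed the filter, 4 of them higher and 0 lower, and 14 of the 27 were at or under the floor in all 5. Among the higher members, Cd74, Fcer1g and C1qa were highest in KYZY 2. Itgam was highest in control 3, at 0.508 CPM beside 0.411 in KYZY 2. C1qa overlapped with scaling to the total count alone. Laptm5 overlapped between the sets and was highest in KYZY 3, at 2.61 CPM beside 2.06 in KYZY 2. The median log2 ratio of the 27 was 0.22, and 0.08 without KYZY 2. The neutrophil and inflammation genes S100a9 and Il1b and the adult globin genes Hbb-bs and Hbb-bt were at 0 in every library. Ptprc, the pan-leukocyte marker, was at 0.529 CPM in KYZY 2 and 0 to 0.227 elsewhere. Hba-a1, an alpha-globin gene, was at 6.72 CPM in control 3 and at most 1.64 elsewhere. Hba-a2, its near-identical copy, was at 4.27 CPM in KYZY 3, 0.205 in KYZY 1 and 0 elsewhere. Because the copies are near-identical, the level of each is uncertain.

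**Figure D2:**
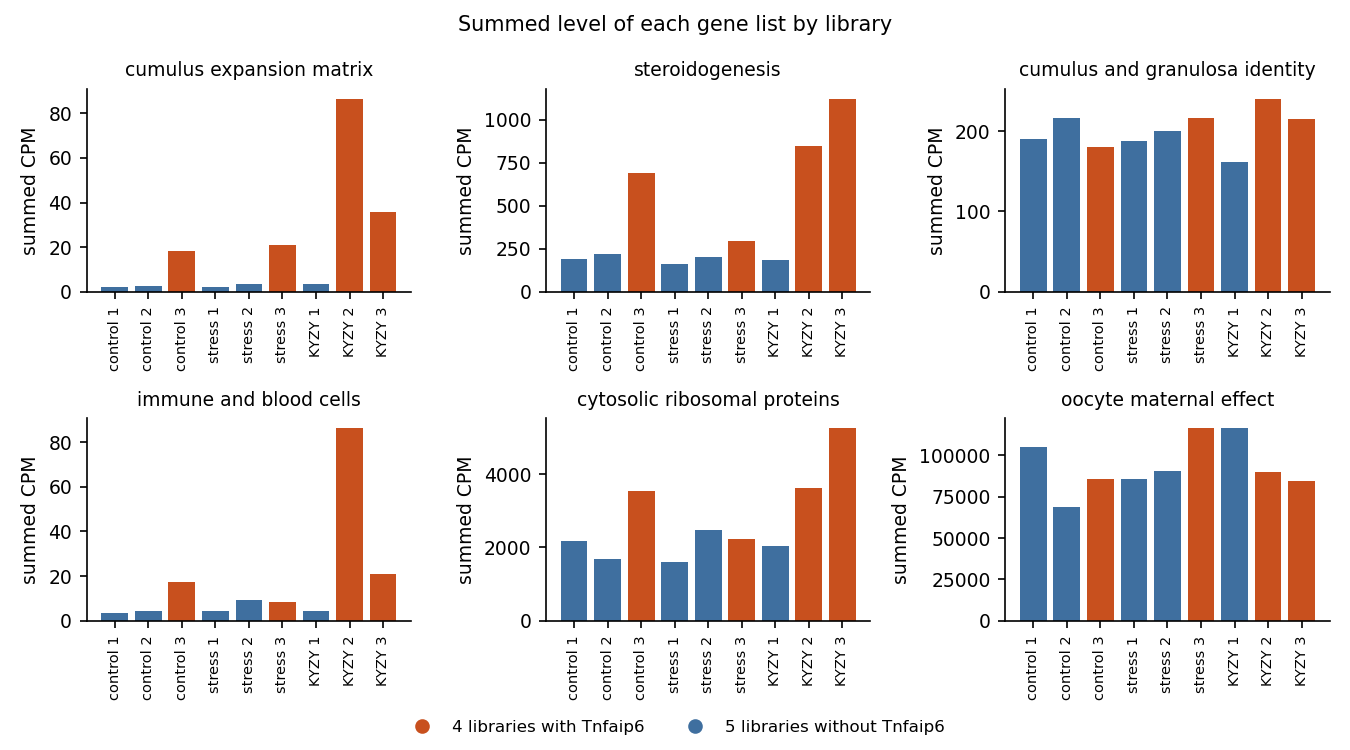
Summed CPM of 6 gene lists in each library, 1 bar per library, with axes from 0. Matrix and steroidogenesis genes are higher in all 4 Tnfaip6-positive libraries, immune genes stand at 86.3 CPM in KYZY 2, ribosomal protein genes in stress 3 (2238 CPM) lie below stress 2 (2477 CPM), and identity and maternal-effect genes overlap.

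Presence above the floor showed how far the 4 libraries shared their additional genes. A total of 1321 genes were above the floor in at least 1 of the 4 and in none of the 5. Of these, 171 were in all 4, 191 in 3, 318 in 2 and 641 in 1. The reverse, genes above the floor in some of the 5 and none of the 4, numbered 862, with 13 in all 5. Genes above the floor in all 9 numbered 10205, and 9283 were above it in none. Of pairs, control 3 with KYZY 3 shared 179 genes, while each of the other 5 pairs shared 6 to 60. Of sets of 3, control 3, KYZY 2 and KYZY 3 shared 142, and the 3 that hold stress 3 shared 7 to 26. KYZY 2 alone had 236, control 3 had 234, KYZY 3 had 130 and stress 3 had 41.

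The genes of highest level in these combinations can be named. Among those of control 3 with KYZY 3 were 6430706D22Rik (5.38 and 9.49 CPM), Krt7, Myl9, a smooth muscle myosin light chain (3.02 and 5.29 CPM), Serping1, an inhibitor of complement C1 (2.54 and 2.82), and the secreted BMP antagonist Nbl1 (4.47 and 4.67). Those of KYZY 2 alone included Wfdc17 at 2.89 CPM, the protease Ctss at 2.54, arginase Arg1 at 2.06, the lysozyme gene Lyz1 at 1.85, the chemokine gene Cxcl2 at 1.47 and the adaptor gene Tyrobp at 1.32. Genes of stress 3 alone were all low, led by Tns4 at 0.807 CPM, and the control 3 gene of highest level was the predicted gene Gm14391 at 2.11.

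In the library as a whole, genes above the floor in none of the 5 took a small share of counts. The 171 genes took 0.0223% of the counts in control 3, 0.0133% in stress 3, 0.0497% in KYZY 2 and 0.0376% in KYZY 3, and at most 0.000639% in the 5. All 1321 genes together took 0.0197% to 0.0816% in the 4. These shares leave out every gene above the floor in any of the 5, also where its level there was far lower. Spp1 (2279 CPM in KYZY 2), Ephx2, Ldha and Cyp11a1 are among those left out, so the shares do not measure all that the 4 held in addition. The 1381 genes higher in all 4, most of whose counts lay in genes also present in the 5, took 6.99% to 8.06% of counts in the 4 and 3.75% to 4.29% in the 5. That last difference follows from how the genes were chosen.

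**Figure D3:**
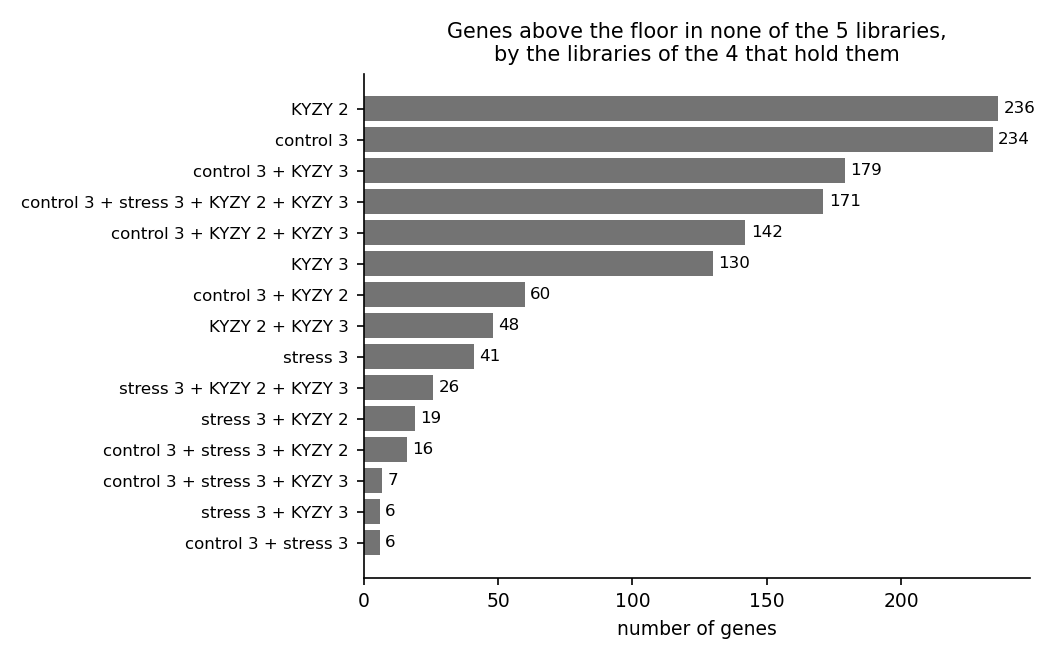
Number of genes above the floor in none of the 5 libraries without Tnfaip6, by the combination of the 4 other libraries in which they were above it. KYZY 2 alone (236), control 3 alone (234), control 3 with KYZY 3 (179) and all 4 (171) hold most of the 1321 genes, and stress 3 with 1 other library holds 6 to 19.

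The genes that separated the sets lay at all levels. Of 4501 genes at up to 1 CPM in the mean of the 5, 786 (17.5%) were higher in all 4 and 47 (1.04%) were lower, and the median ratio of means of the 786 was 15.9. Of 5110 genes over 10 CPM, 363 (7.10%) were higher, with a median ratio of 1.69, and 634 (12.4%) were lower, with a median ratio of 0.668. Genes near 0 in the 5 passed the low-count filter largely through the 4 and have little room to be lower, so their direction and their large ratios follow from the division and the filter.

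**Figure D4:**
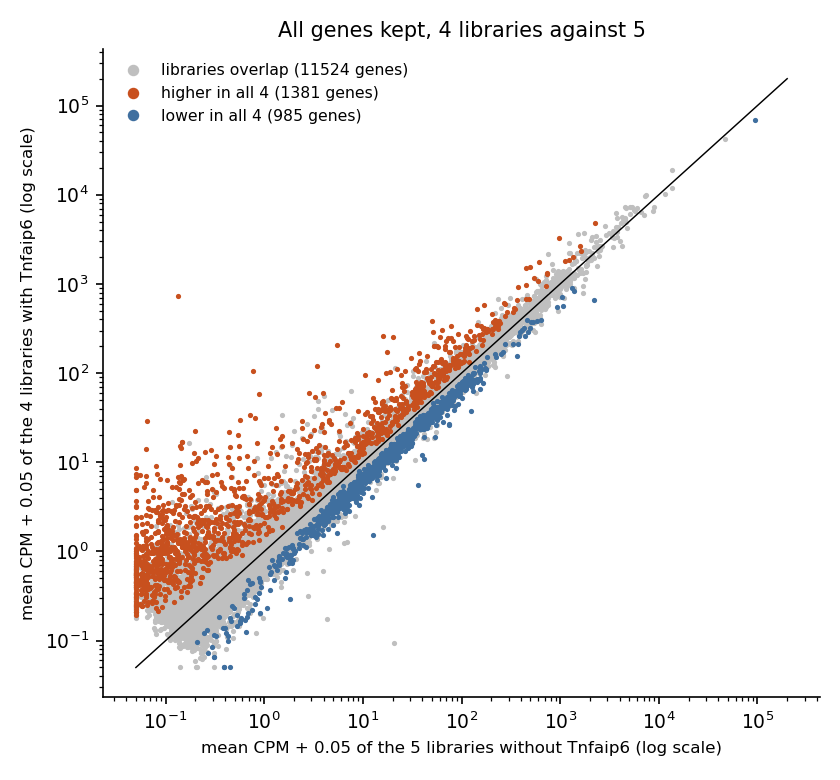
Mean CPM plus 0.05 of each of the 13890 genes in the 5 libraries without Tnfaip6 (horizontal) and the 4 with it (vertical), both on log scales, with the line of equal means. The 1381 genes higher in all 4 rise far above the line at low levels and lie close to it at high levels, and the 985 lower genes run along its other side.

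Cytosolic ribosomal protein genes had a higher mean in the 4 libraries for 79 of 82 members, where 50.4% of all genes kept had one. Their median log2 ratio was 1.72. Only 20 of them were higher in all 4 (0 were lower). Their summed level was 3527 CPM in control 3, 2238 in stress 3, 3632 in KYZY 2 and 5257 in KYZY 3, against 1594 to 2477 in the 5, the highest of which was stress 2. Within treatments the median was 1.89 in control, 0.16 in stress and 2.25 in KYZY. Rpl23a was at 18.3, 8.26, 16.1 and 30.2 CPM against 0.38 to 3.33, a ratio of means of 13.0. Rpl4 and Rpl17 overlapped between the sets: Rpl4 was at 297 to 396 CPM in the 4 and 207 to 398 in the 5, and Rpl17 at 143 to 213 against 206 to 301. Many of these genes have near-identical processed copies, so the division of reads among them is uncertain. Rplp0 and Rpl13, at ratios of 3.30 and 1.69, overlapped when libraries were scaled to the total count alone.

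Nuclear genes of oxidative phosphorylation were higher in 13 of 75 members and lower in 1, with a median log2 ratio of 0.66. Uqcrc1, a core subunit of complex III, was at 7.41, 2.34, 7.09 and 7.28 CPM against 0.149 to 1.23, a ratio of means of 12.3. Ndufa7, of complex I, was at 0.636 to 3.77 CPM against 0 to 0.392. Sdhc, of complex II, was the lower member, at 5.63 to 8.43 against 11.5 to 16.1 CPM. Again the abundant members overlapped: Atp5b, the catalytic subunit of ATP synthase, was at 435 to 583 against 412 to 647 CPM. The summed level was 1801 to 2022 CPM in the 4 and 1616 to 2104 in the 5, and the median in stress was -0.01 against 0.78 in control and 0.88 in KYZY.

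Glycolysis and lactate genes included 9 higher and 2 lower of 22, with a median log2 ratio of 0.66. It was 0.44 without KYZY 2 and 0.39 in the control and stress libraries alone. Ldha, the lactate dehydrogenase subunit of glycolytic cells (chromosome 7, 46842274 to 46855627), was at 22, 25.4, 129 and 54.5 CPM, against 0 to 2.31 in the 5, a ratio of means of 69.6. Its partner subunit Ldhb, the abundant form of the oocyte, overlapped at 1782 to 2828 against 1290 to 3252 CPM. Pkm, Gapdh, Eno1, Tpi1, Pgam1, Hk1 and Aldoc, all enzymes of glycolysis, were higher at ratios of 1.58 to 3.87 for those with a level over the floor in the 5, and Pgam1 overlapped with scaling to the total count alone. Slc16a3, the exporter of lactate, was at 1.16 to 8.30 CPM in the 4 and 0 in the 5. Slc2a1, a glucose transporter, was lower, at 6.33 to 9.16 against 9.44 to 21.5 CPM. Slc16a1, a carrier of lactate and pyruvate, was lower too, at 3.01 to 4.86 against 5.50 to 7.19 CPM.

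The 100 bases before the start of Ldha are shown because Ldha was the glycolysis gene of widest gap and the only 1 of 20 such genes with a window whose promoter held the cyclic AMP response element TGACGTCA, printed in capitals. The sequence is from RefSeq, GRCm38.p6, chr7:46845704-46845803, plus strand, and the motif begins 12 bases before the start. RefSeq gives 2 starts for Ldha, both inside the span of the gene above, and this is the one whose window held the motif.
Ldha: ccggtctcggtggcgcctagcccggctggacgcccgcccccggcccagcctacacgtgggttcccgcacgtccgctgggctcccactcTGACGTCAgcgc
The element was searched on both strands from 250 bases before to 50 after each start, and 2.03% of 27025 genes held it. Beside Ldha it was in 1 of 14 EGF and LH genes with a window (Areg, at 0 in every library), 1 of 14 immediate early genes (Dusp1), 6 of 61 ribosomal protein genes and 4 of 62 oxidative phosphorylation genes, and in 0 genes of the other 11 lists. AAGGTCA, the monomer site of Nr5a1, was in 5.38% of all, in 0 of 11 steroidogenesis and 0 of 10 matrix genes and in 8 of 62 oxidative phosphorylation genes (12.9%).

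Cholesterol synthesis and uptake genes were higher in 4 of 21 members and lower in 1, with a median log2 ratio of 0.47. Fdps, which makes farnesyl diphosphate, was at 25.1, 10.3, 127 and 51.1 CPM against 2.23 to 4.25, a ratio of means of 16.7. The next enzyme of the pathway went the other way: Fdft1, squalene synthase, was at 714, 1079, 875 and 627 CPM against 1116 to 1607, though it overlapped with DESeq2 size factors. The kinases of the mevalonate pathway Mvk and Pmvk, also higher, reached at most 1.33 and 1.31 CPM, and Mvk overlapped with scaling to the total count alone.

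Immediate early genes were higher in 6 of 17 members and lower in 0, with a median log2 ratio of 0.75. That median was 0.41 without KYZY 2, and within treatments it was 0.75 in control, 0.09 in stress and 1.20 in KYZY. Ier3 was at 2.34, 7.23, 37.5 and 8.39 CPM, against 0 to 0.0632 in the 5. Junb was at 2.02, 2.59, 17.6 and 3.69 against 0 to 0.201 CPM, and Jun, Ier2, Myc and Nr4a1 were the other 4. KYZY 2 was highest in all 6, as it was for Lyz2. Fos did not separate the sets, at 3.46 CPM in KYZY 2, 0.233 to 1.16 in the rest of the 4 and 0.11 to 0.803 in the 5. Dusp1 and Egr1, the abundant members, overlapped.

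Abundant transcripts of the oocyte also differed between the sets. The 10 higher genes of highest level were D6Ertd527e, Omt2b, Tiparp, Cdc42se2, Oosp3, Oaz1-ps, Hsp90ab1, Smc4, Plat and Omt2a, with ratios of 1.41 to 3.36. All 10 were higher in all 4 under the 3 scalings tried. Plat encodes tissue plasminogen activator, whose stored messenger is a classic case of translation by cytoplasmic polyadenylation during mouse oocyte maturation. It was at 1677 CPM in control 3, 1674 in stress 3, 1569 in KYZY 2 and 1236 in KYZY 3, and at 550, 278, 311, 433 and 904 CPM in control 1, control 2, stress 1, stress 2 and KYZY 1. Omt2b was at 3282, 3377, 2905 and 3384 CPM in the 4 and at 1120, 660, 492, 676 and 1923 in the 5, in the same order. Omt2a and Omt2b are close copies, and reads could be divided wrongly between them. Smc4, a condensin subunit, was at 1391 to 2414 CPM in the 4 and at 103 to 953 in the 5.

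D6Ertd527e was at 4872, 5566, 3731 and 5070 CPM, highest in stress 3. Control 1 and KYZY 1 were nearest to these, with 3549 and 3592 CPM of D6Ertd527e, and were the highest of the 5 in all 10 genes, while control 2, stress 1 and stress 2 had 1289 to 1541. Control 1 and KYZY 1 also had the lowest TMM factors of the 5 (0.879 and 0.853) and the fewest genes above the floor of all 9 libraries (11381 and 11644). The part of library composition in these differences was not tested.

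The 3′ ends of these messengers are shown because a motif there was more frequent among the higher abundant genes. TTTTAT and TTTTAAT are forms of the cytoplasmic polyadenylation element, which Cpeb1 binds, and neither form contains the other. They were searched on the transcript strand only, in the last 100 bases of the longest coding transcript of each gene (GENCODE M21, GRCm38), a search chosen after the values were seen. Of the 9 genes with such a transcript, 6 held a motif, printed in capitals within 30 bases. Their positions are chr6:87112941-87112970 (plus), chr9:78329512-78329541 (plus), chr9:78312059-78312088 (minus), chr19:11711798-11711827 (plus), chr17:45567813-45567842 (minus) and chr8:22782744-22782773 (plus), in the order of the lines.
D6Ertd527e: tcctgtacatttTTTTATtattgtttgttt
Omt2b: ctatactgtgatTTTTATtattgccatgtc
Omt2a: ctatactgtgatTTTTATtattgccatgtc
Oosp3: aactatcagtgtTTTTATcctttactgtaa
Hsp90ab1: tttttttgtttgTTTTATtttgttctaaaa
Plat: agtatatttataTTTTAATctattttagtt
The stretches of Omt2a and Omt2b are identical. Tiparp, Cdc42se2 and Smc4 held no copy in this window.

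Among genes over 10 CPM in the 5, a motif was in 126 of 353 higher genes with a transcript (35.7%), 105 of 626 lower genes (16.8%) and 1127 of all 4988 (22.6%). Base composition differed in the same order. The median GC content of the transcript was 43.9% for higher, 52.5% for lower and 48.8% for all such genes, and that of the last 100 bases was 30%, 38% and 34%. An AT-rich motif and AT-rich ends cannot be told apart here. Median lengths were 3862, 3757 and 3471 bases. At up to 1 CPM a motif was in 16.7% of 756 higher genes and 15.6% of all 4066, with a median GC of 51.4% and 51.3%.

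**Figure D5:**
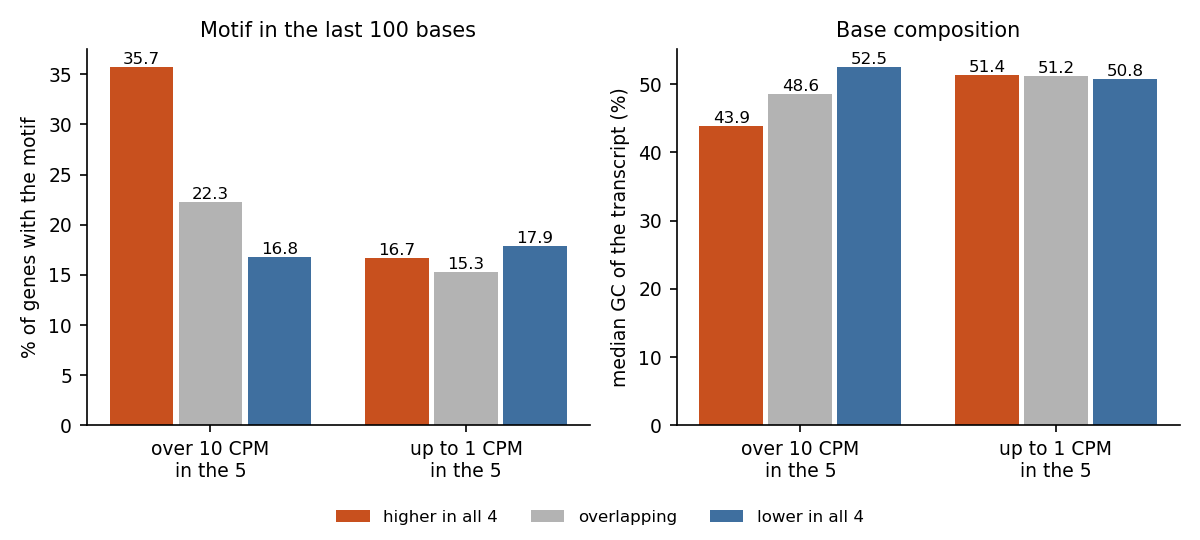
Share of genes with TTTTAT or TTTTAAT in the last 100 bases of the transcript (left) and median GC content of the transcript (right), for genes higher in all 4 libraries, overlapping and lower in all 4, at over 10 and at up to 1 CPM in the mean of the 5. The 3 classes differ among abundant genes (35.7%, 22.3% and 16.8% with a motif) and lie within 15.3% to 17.9% among low genes.

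The lower genes of highest level were Rn45s, Umodl1, Fdft1, Arl6ip1 and Cd164l2. Rn45s, the ribosomal RNA precursor, was at 69410, 65820, 66300 and 73760 CPM against 83170 to 110300, but it overlapped with scaling to the total count alone. Umodl1 was at 521, 948, 694 and 469 CPM against 966 to 4143, most of all in KYZY 1. Umodl1, Fdft1, Arl6ip1 and Cd164l2 overlapped between the sets with DESeq2 size factors, so none of the 5 held under every scaling. The lower genes of widest gap, Rhbdf1, Zfp846, Nos1, Fmnl3 and Gng3, were lower under all 3 scalings. Rhbdf1, a rhomboid-like protein that regulates EGF ligands, was at 5.42, 0.279, 10.9 and 5.51 CPM against 20.4 to 48.7. Nos1, neuronal nitric oxide synthase, was at 32.8, 34.4, 37.3 and 29.2 CPM against 63.9 to 81.7, with little spread inside either set.

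Oocyte lists overlapped between the sets almost throughout. Of 25 maternal-effect genes 0 were higher and 0 lower, with a median log2 ratio of -0.04. Zbed3, of the subcortical maternal complex, was at 39250 to 47610 CPM in the 4 and 36110 to 53310 in the 5. Btg4, an adaptor of maternal messenger decay, was at 5409, 7881, 6025 and 5342 CPM in the 4 and 2662 to 5746 in the 5, with KYZY 1 inside the range of the 4. Of 12 zona and growth factor genes, Oosp3 alone was higher, beside 9.94% of all genes kept. The median log2 ratio of the 12 was -0.45, and only 2 had a higher mean in the 4, where 50.4% of all genes kept had one. The zona genes Zp1, Zp2 and Zp3 had ratios of 0.52, 0.597 and 0.737, and Gja4, the connexin of the oocyte side of the junctions, one of 0.560, each with overlap. In stress 3 the zona and growth factor list went the other way: within treatments its median was -0.73 in control, 0.11 in stress and -0.73 in KYZY. Of 24 meiosis and spindle genes, 22 passed the filter, 2 of them higher and 2 lower, beside 9.94% and 7.09% of all genes kept. Smc1b and Sycp3, of meiotic chromosome axes, were higher at ratios of 1.75 and 1.71. Cdc25a and Ccnb3 were lower at 0.681 and 0.696, though the lower pair overlapped with scaling to the total count alone. Cpeb1 itself was at 321 to 626 against 350 to 602 CPM.

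The treatments, whose labels the division did not use, gave the only test. With edgeR's quasi-likelihood F test over the 3 groups and Benjamini-Hochberg adjustment, 0 of 13890 genes (0%) were called different among control, stress and KYZY. The adjusted p of that test was 0.9996 or more. On simulated counts the test called 24 of 100 genes changed 4-fold, so 0 calls do not show that no gene differed. An unadjusted p under 0.05 was found for 335 genes. Spp1 shows the spread behind that result: its mean was 15.2 ± 26.3 CPM for control, 104 ± 180 for stress and 848 ± 1246 for KYZY libraries (SD, n = 3 each), with an SD above the mean in every group. Cyp11a1 was at 79.1 ± 129 CPM in control, 8.82 ± 6.98 in stress and 200 ± 213 in KYZY. The biological coefficient of variation, the typical relative spread between libraries of a treatment, was 0.611. It was 0.465 with the division by Tnfaip6 as a further term, where edgeR called 0 genes, 477 had an unadjusted p under 0.05 and the smallest adjusted p was 0.7495. Without the 4 Tnfaip6-positive libraries, 211 genes were called on 2 residual degrees of freedom, with KYZY 1 alone in its group and assumed to vary like the others. The genes called that belonged to the lists described were Aurkc, Fn1, Oosp2 and Rps2. Their share of the lists was not compared with that of all genes. Leaving out control 3 gave 4 calls and leaving out any other single library gave 0, and the likelihood ratio test of DESeq2 called 5 genes.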

How the data were processed

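The deposited tables hold expected counts per gene, whole numbers that the authors did not normalize, in a separate table for each library. No header names the unit, which was inferred from whole-number values and from StringTie in the submitters' processing notes. About 4 counts appeared to stand for 1 read pair, so totals overstate the precision. Those notes also name HISAT2, DESeq2, Trim Galore and bcl2fastq 2.20, with the builds GRCm38 and mm10. Settings are not given in the sources used here. The cDNA was made with a SMART-Seq v4 kit, without molecular identifiers and without strand, per the labels' protocols, so floors cover counting error only and overlapping genes on opposite strands cannot be told apart.

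Counts were scaled in R 4.3.3 with edgeR 4.0.16 (TMM) and filtered with filterByExpr (minimum count 10, minimum total 15), which left 13890 of 24736 genes and 99.9832% of counts. The 3 treatment groups were compared by edgeR's quasi-likelihood F test with Benjamini-Hochberg adjustment at 0.05. On simulated counts for 13407 genes this test called 24 of 100 genes changed 4-fold, 76 of 100 changed 8-fold and 1 of 13207 unchanged. The replicate numbers were not taken to pair the libraries. Libraries of a group came from separate mice.

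The members, the 16 gene lists and the rule for named genes were chosen with earlier results of these data known. Named were the 3 markers, the 10 higher and 5 lower genes of highest mean level and the same numbers of widest gap, up to 6 members of highest level and up to 8 separating members of each list, and members at 0 everywhere. Genes named outside this rule, such as Star, Foxl2, Fshr, Fos, Col3a1, Ptprc, Cyp19a1, Zp1, Slc2a1 and those of single combinations of libraries, were chosen after their values were seen. Alternatives were DESeq2 1.42.0 (size factors and likelihood ratio test), scaling to the total count, no low-count filter, leaving out libraries, comparisons within treatments or sequencing descriptions, a replicate block, the division as a term and, chosen after seeing the data, the matrix list without Tnfaip6.

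Coordinates are on GRCm38; RefSeq (GRCm38.p6) matched 24076 of 24736 symbols.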

Additional observations from a re-analysis of the deposited data

Results flagged for a closer look

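Summed list levels were screened for a library far from the rest of its set by Dixon's criterion, among the 4 and among the 5, in 32 sets of values, of which chance alone marks about 1 in 20. KYZY 2 stood apart among the 4 for immune and blood genes, at 86.33 CPM against 8.30 to 21.1. Stress 2 stood apart among the 5 for the same genes, at 9.186 CPM against 3.44 to 4.55. Stress 3 stood apart among the 4 for maternal-effect genes, at 116500 CPM against 84570 to 89950, and for meiosis and spindle genes, at 13080 CPM against 8717 to 9293. In the other set KYZY 1 had sums of 116500 and 11820 CPM for these lists, and control 1 of 105200 and 10520. Stress 3, KYZY 1 and control 1 had the lowest TMM factors, 0.799, 0.853 and 0.879. The part of scaling in these sums was not tested.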

How the results depend on the processing

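Scaling and filtering moved neither count of separating genes by 1.5 times: 1098 to 1511 genes were higher and 790 to 985 lower over TMM, DESeq2 size factors and the total count, and 1479 and 950 without the low-count filter. Leaving out 1 library at a time gave 1531 to 2438 higher and 1017 to 1554 lower genes, the highest of both without stress 3. Comparing within treatments gave 1903 and 1630, and the control and stress libraries alone 1866 and 2078, so that there fewer genes were higher (47.3% of those separating, against 58.4%). The median of all genes shifted by at most 0.05 on the log2 scale. Of 107 named separating genes, 103 separated with DESeq2 size factors and 92 with the total count. List medians stayed within the spread between libraries in 210 recomputed values and moved past it in 14. The median of immune and blood genes, 0.22, was 0.00 in control and stress libraries alone, on the other side of 0 before rounding. For the treatments, DESeq2 called 5 genes, the fit without the 4 libraries 211, and leaving out 1 library 0 to 4. The numbers were to be taken as a pairing only where every same-numbered pair correlated over 0.1, which 7 of 9 did (-0.20 to 0.63); 7 of 9 libraries correlated best with their own number. Since Tnfaip6 was present in every library numbered 3 and none numbered 1, number and division cannot be told apart between these. The replicate block called 0 genes, with 719 at an unadjusted p under 0.05. The cause of these changes was not tested. A count of 0 allows 3 read pairs, so genes under 0.105 to 0.245 CPM could not be seen.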
